A study of Mus musculus with 9 samples.

Results

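The 10 genes described here mark natural killer (NK) and cytotoxic lymphocytes, and were followed through 9 single-color microarrays of mouse lung RNA. They were chosen by name for their function, with earlier results of these data known. They are the granule genes Gzma, Gzmb, Prf1 and Nkg7 and the receptor genes Klrd1, Klrb1c, Klrk1 and Ncr1. The chemokine gene Ccl5 and the transcription factor gene Eomes complete the group. All 10 were found, of 19698 genes measured, and each was read from its brightest probe, that is, the probe with the highest mean log2 intensity over the 9 arrays. The 4 control arrays hold lung RNA of male C57BL/6 mice aged 10 weeks, and the study's methods state that control lungs came from mice that were not irradiated. The 5 irradiated arrays hold RNA of left lungs given 1 dose of radiation, from mice of the same sex, age and strain. The labels of all 9 arrays give anesthesia with zoletil (30 mg/kg) and rompun (10 mg/kg) for the time of exposure. No genetic change is labeled in either group. For the irradiated arrays, neither a dose nor a lung region nor a time after exposure is labeled, so any differences in these among the 5 arrays are part of their spread. RNA of repeated experiments was pooled before labeling according to the methods, so an array is a pool, and p-values measure only the spread between these arrays.

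NK cells and cytotoxic T cells kill target cells by releasing granules. Perforin, the product of Prf1, opens the target membrane, and the granzymes, serine proteases such as those of Gzma and Gzmb, enter and start cell death. NK cells decide whether to release their granules from the balance of activating receptors (NKG2D from Klrk1, NKp46 from Ncr1, NK1.1 from Klrb1c) and of receptors for self molecules that hold them back, such as those in which CD94 from Klrd1 is a partner chain. The lung holds many NK cells at rest. In RNA of lung tissue, fewer cells of a type and less RNA per cell cannot be told apart.

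Promoter windows are shown for Gzma, Gzmb, Klrb1c and Ncr1, which are the members with a window among the 6 that had their lowest level of the 9 arrays on irradiated array 4, as described further on. RefSeq windows of the mouse build GRCm38.p6, from 250 bases before to 50 bases after a gene's start, were found for 8 of the 10 members, and each is written 5′ to 3′ on the strand of its gene. Capitals mark the letters TGTGGT on either strand (ACCACA when read on the other), the core to which RUNX factors bind. The Gzma window is chr13:113100932-113101231 on the minus strand, that of Gzmb chr14:56262285-56262584 on the minus strand, that of Klrb1c chr6:128788592-128788891 on the minus strand and that of Ncr1 chr7:4337465-4337764 on the plus strand.
Gzma: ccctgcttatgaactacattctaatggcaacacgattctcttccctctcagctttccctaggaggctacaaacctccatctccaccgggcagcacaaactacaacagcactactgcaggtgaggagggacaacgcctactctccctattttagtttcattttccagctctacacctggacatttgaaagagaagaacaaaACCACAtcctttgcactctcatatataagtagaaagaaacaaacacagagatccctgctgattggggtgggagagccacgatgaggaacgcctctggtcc
Gzmb: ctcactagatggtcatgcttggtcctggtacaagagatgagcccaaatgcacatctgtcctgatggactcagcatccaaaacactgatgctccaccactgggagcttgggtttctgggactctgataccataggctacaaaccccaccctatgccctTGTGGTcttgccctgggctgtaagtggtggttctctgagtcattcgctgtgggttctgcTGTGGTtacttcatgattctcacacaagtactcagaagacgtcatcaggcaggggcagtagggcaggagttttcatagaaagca
Klrb1c: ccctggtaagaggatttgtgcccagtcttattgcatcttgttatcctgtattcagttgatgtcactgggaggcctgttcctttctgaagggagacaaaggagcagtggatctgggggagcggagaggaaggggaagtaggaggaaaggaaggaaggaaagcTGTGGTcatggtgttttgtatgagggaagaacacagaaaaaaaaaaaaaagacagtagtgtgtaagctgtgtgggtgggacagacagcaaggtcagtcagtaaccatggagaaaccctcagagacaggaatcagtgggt
Ncr1: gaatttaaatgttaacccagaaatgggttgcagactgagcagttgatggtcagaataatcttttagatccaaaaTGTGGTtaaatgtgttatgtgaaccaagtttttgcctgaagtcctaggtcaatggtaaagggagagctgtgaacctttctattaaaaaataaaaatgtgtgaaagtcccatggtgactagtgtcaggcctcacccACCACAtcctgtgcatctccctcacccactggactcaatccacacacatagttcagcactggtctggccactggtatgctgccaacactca

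These RUNX letters were present in the windows of 7 members (Gzma, Gzmb, Prf1, Nkg7, Klrb1c, Klrk1 and Ncr1), against 16.8% of 32851 windows of the same length across the genome. Counted from the start of the gene, the match nearest to it began at position −34 in Gzmb, −41 in Ncr1, −50 in Gzma and −89 in Klrb1c. Letters bound by ETS factors (AGGAAG, either strand) were in the windows of 3 members, Prf1, Nkg7 and Klrb1c, against 35.4% of all windows. Letters bound by T-box factors such as Eomes (AGGTGTGA, either strand) were in the Nkg7 window alone of the 8, against 1.28% of all windows. None of the 3 motifs contains another. A match in letters is a description of the sequence and not a measured binding site.

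No difference between the control and the irradiated arrays passed the test for any of the 10 genes. In the limma fit across 39302 probes, 0 of 10 passed an adjusted p of 0.05 and 0 of 10 had an unadjusted p under 0.05, while over all genes 0.416% passed the first threshold (0.264% higher, 0.152% lower) and 12.3% the second. In the irradiated arrays, 3 members had a higher mean and 7 a lower one, with a median difference of −0.11 on the log2 scale, beside 0.01 for all genes. No member separated the groups, while 3.40% of all genes had every irradiated array above every control array and 1.76% had the reverse. The 95% confidence intervals of the 10 members lay within 0.51-fold and 1.78-fold of the control level, and each included no difference. The smallest adjusted p was 0.753, for Ncr1, and the smallest p of the exact two-sided permutation test over arrays was 0.214, for Klrk1 and Ncr1. With 4 arrays against 5, that test can give no p below 0.00794.

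**Figure D1:**
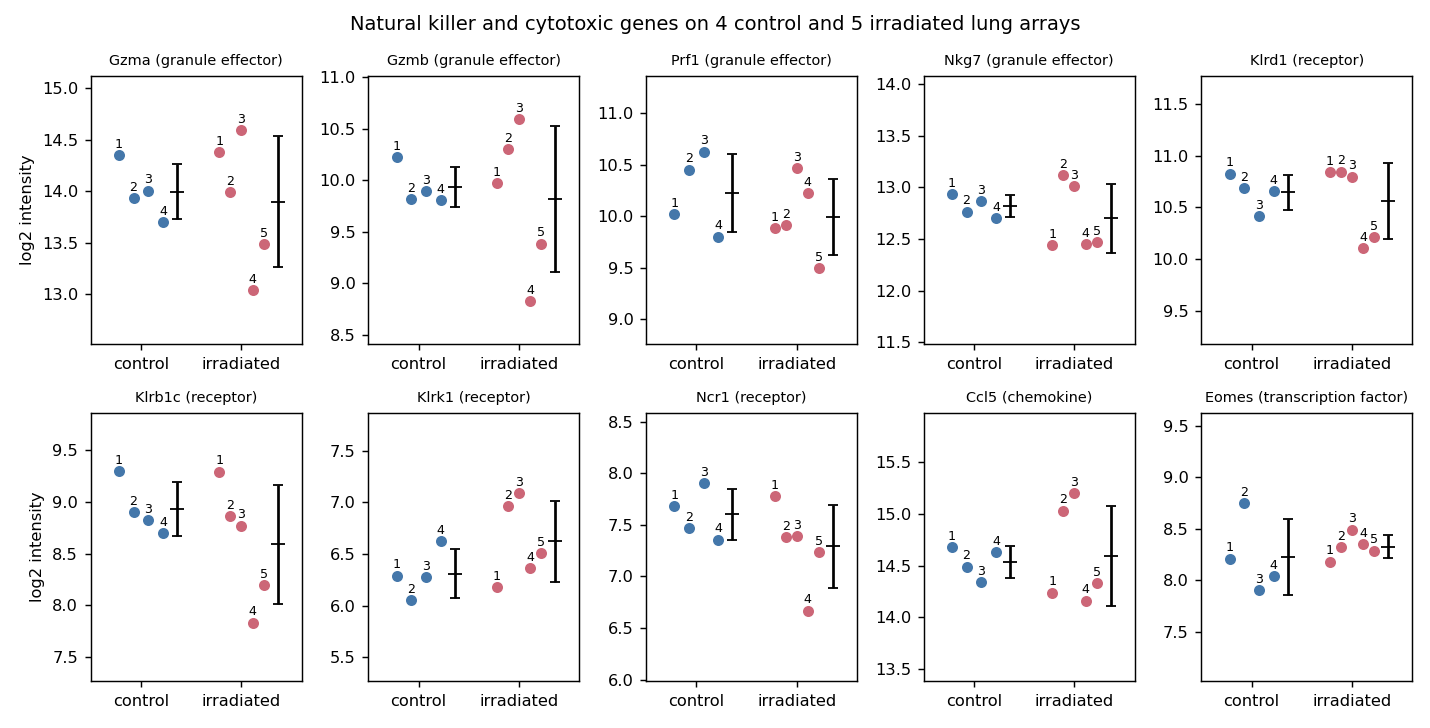
Log2 intensity (y axis) of each of the 10 genes on the 4 control (blue) and 5 irradiated (red) arrays, each point numbered as in its label, with the mean and SD of the group in black; each panel spans the same range of log2 units. By brightest probes, the groups overlap for every gene, and irradiated arrays 4 and 5 lie below all controls for Gzma, Gzmb, Nkg7, Klrd1, Klrb1c, Ncr1 and Ccl5.

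Every member was well above background on all 9 arrays and was read from 1 spot per array. Between 72.8% and 89.1% of spots were well above background on an array, and no spot was saturated. Precision depends on both the number of arrays and the spread among them. Sftpc, the marker of type II alveolar cells, was bright on every array. Irradiated array 1 stood apart by low heart muscle genes (mean of 10 genes −4.92 on the log2 scale relative to the controls, against −0.53 to 0.23 on the other irradiated arrays) and control array 3 by high skeletal muscle genes (mean 4.29 relative to the control mean, against −1.83 to −1.20). Without these 2 arrays, 0 of the 10 members passed, their differences ran from −0.55 for Klrb1c to 0.41 for Klrk1, and each kept its direction.

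The granule genes were bright in both groups. Gzma, which encodes granzyme A, had log2 intensities of 14.35, 13.93, 14.01 and 13.70 on control arrays 1 to 4 and of 14.38, 13.99, 14.59, 13.04 and 13.49 on irradiated arrays 1 to 5. Irradiated arrays 1 and 3 thus lay above every control and arrays 4 and 5 below every control. The means were 13.997 ± 0.27 (SD, n = 4) and 13.90 ± 0.64 (SD, n = 5), a difference of −0.10 (SE 0.29) with a limma adjusted p of 0.973. Gzmb, for granzyme B, the protease that cleaves caspases in the target, read 10.22, 9.82, 9.89 and 9.81 in the controls and 9.97, 10.30, 10.59, 8.83 and 9.38 in the irradiated arrays. Its order followed that of Gzma at both ends, with array 3 highest and array 4 lowest of all 9. The difference was −0.12 (SE 0.32, adjusted p = 0.967). 

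Prf1, for perforin, measured 10.02, 10.45, 10.63 and 9.80 in the controls against 9.88, 9.91, 10.46, 10.22 and 9.49 in the irradiated arrays. Its spread was alike in both groups (SD 0.38 and 0.37), and irradiated array 5, not array 4, was its lowest. The difference was −0.23 (SE 0.22, adjusted p = 0.833). Nkg7, for a membrane protein of cytotoxic granules, gave 12.94, 12.76, 12.86 and 12.70 in the controls and 12.44, 13.12, 13.01, 12.45 and 12.47 in the irradiated arrays. The controls lay close together (SD 0.10), and every irradiated array lay outside their range, arrays 2 and 3 above it and arrays 1, 4 and 5 below it. The difference was −0.12 (SE 0.16, adjusted p = 0.897), and a second Nkg7 probe gave 0.02 (SE 0.18). On that probe, irradiated arrays 2 and 3 also lay above the controls and array 1 below. Its values on arrays 4 (11.08) and 5 (11.26) lay within the control range of 11.07 to 11.44.

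Of the receptor genes, 3 had lower and 1 had higher means in the irradiated arrays. Klrb1c, whose product is the NK1.1 antigen by which NK cells of C57BL/6 mice are recognized, measured 9.30, 8.90, 8.83 and 8.70 in the controls and 9.30, 8.86, 8.77, 7.83 and 8.20 in the irradiated arrays. Irradiated arrays 1 to 3 lay within the control range, and arrays 4 and 5 lay below it. The difference of −0.34 (SE 0.28, adjusted p = 0.793) corresponded to 0.789-fold with a 95% interval of 0.51-fold to 1.22-fold. A second Klrb1c probe, dimmer, gave −0.13 (SE 0.31). Ncr1, for the activating receptor NKp46, read 7.68, 7.46, 7.91 and 7.36 in the controls and 7.78, 7.38, 7.39, 6.67 and 7.24 in the irradiated arrays. Its lowest value was again on irradiated array 4, and array 1 was the second highest of all 9. The difference was −0.31 (SE 0.23, adjusted p = 0.753), or 0.807-fold with an interval of 0.566-fold to 1.15-fold.

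Klrd1, for CD94, was measured at 10.83, 10.69, 10.42 and 10.65 in the controls and at 10.84, 10.85, 10.80, 10.10 and 10.21 in the irradiated arrays. Irradiated arrays 1 and 2 lay just above the highest control and array 3 just below it, while arrays 4 and 5 lay below the control range. The difference was −0.09 (SE 0.19, adjusted p = 0.951). Klrk1, for NKG2D, the receptor of stress-induced ligands, differed from the other receptors in its order: 6.29, 6.05, 6.27 and 6.63 in the controls and 6.18, 6.97, 7.09, 6.36 and 6.51 in the irradiated arrays. Arrays 2 and 3 lay above all controls and no irradiated array lay below them. The difference of 0.31 (SE 0.23, adjusted p = 0.759) had a 95% interval of −0.21 to 0.84.

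Ccl5, a chemokine stored and released by cytotoxic cells and also made by other cells, had values of 14.68, 14.49, 14.34 and 14.63 in the controls and of 14.24, 15.03, 15.21, 14.16 and 14.33 in the irradiated arrays. The irradiated arrays lay on both sides of the controls, arrays 2 and 3 above and arrays 1, 4 and 5 below. The difference was 0.06 (SE 0.22, adjusted p = 0.981). Eomes, the T-box factor that directs NK cell maturation, read 8.21, 8.75, 7.91 and 8.04 in the controls and 8.18, 8.32, 8.49, 8.35 and 8.29 in the irradiated arrays. All irradiated values lay inside the control range, with an SD of 0.11 against 0.37 in the controls. The difference was 0.10 (SE 0.18, adjusted p = 0.930), and a second, dimmer Eomes probe gave 0.43 (SE 0.47, adjusted p = 0.855). On that probe the spread was the reverse, with an SD of 0.95 in the irradiated arrays against 0.48 in the controls. Irradiated arrays 1 (7.06) and 3 (6.29) lay above its highest control (5.82).

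The members varied more among the irradiated than among the control arrays. The SD of the irradiated arrays exceeded that of the controls for 8 of the 10 members, with a median ratio of 2.20, while 49.1% of all genes had the larger SD in the irradiated arrays and their median ratio was 0.99. The exceptions were Prf1 and Eomes, the latter by its brightest probe only, as its second probe had the larger SD in the irradiated arrays. Each T cell marker of the list read further on also had the larger SD in the irradiated arrays. For Cd4, the brightest of these, it was 0.56 against 0.43 in the controls. Averaged over the 10 members and set against the control mean, irradiated array 3 was at 0.32 on the log2 scale, array 2 at 0.15, array 1 at −0.004, array 5 at −0.36 and array 4 at −0.52, while the control arrays 1 to 4 were at 0.13, 0.01, −0.02 and −0.12. Irradiated arrays 4 and 5 thus lay below, and arrays 2 and 3 above, the span of the controls.

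**Figure D2:**
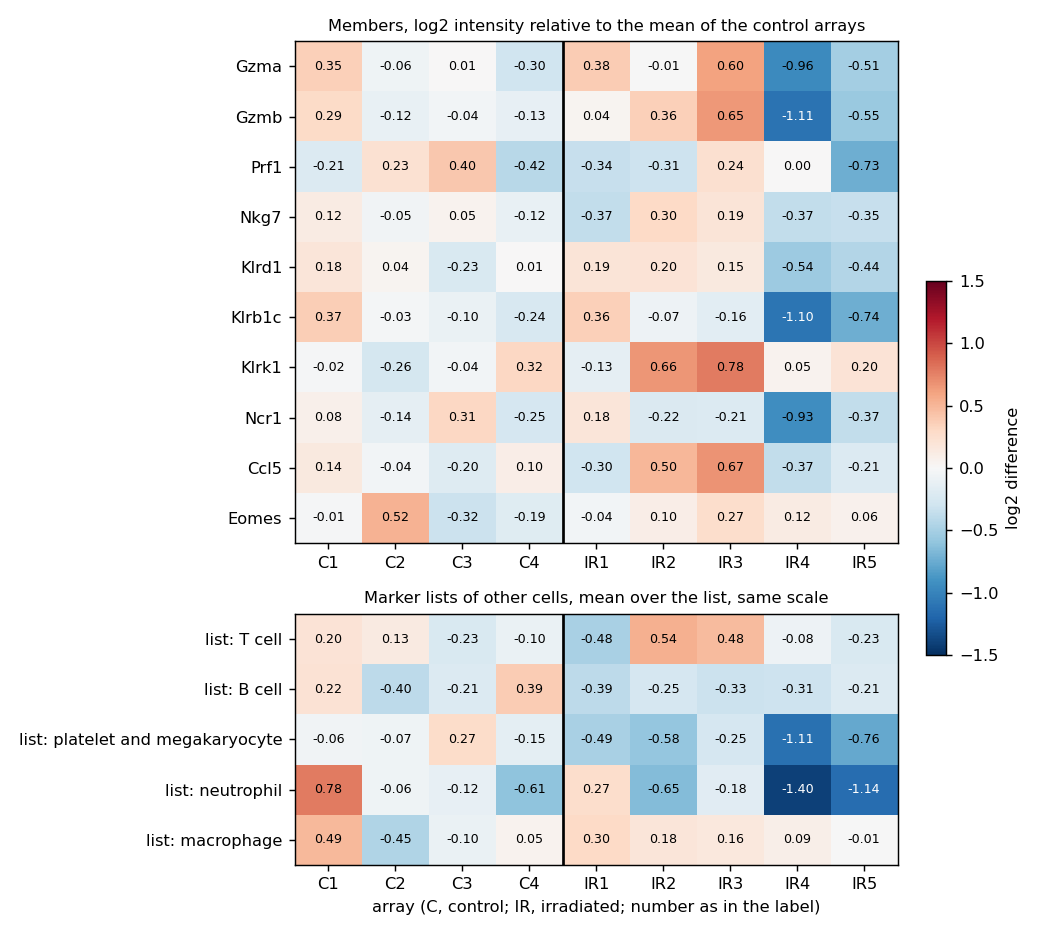
Log2 intensity minus the mean of the 4 control arrays (color and number, log2 units) for the 10 genes (upper block) on control (C) and irradiated (IR) arrays. The lower block gives the mean of 5 marker lists of other cells, namely T cells, B cells, platelets, neutrophils and macrophages. IR3 is high and IR4 low for most of the 10 genes, and the neutrophil and platelet lists are also low on IR4 and IR5.

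Gene by gene, irradiated array 4 held the lowest of the 9 values for 6 members (Gzma, Gzmb, Klrd1, Klrb1c, Ncr1 and Ccl5), against 13.8% of all genes. Irradiated array 3 held the highest value for 4 members (Gzma, Gzmb, Klrk1 and Ccl5), against 10.6% of all genes. On irradiated array 4, 7 members lay below every control array and 0 above, whereas over all genes 23.6% lay below and 19.2% above. On irradiated array 5, 8 lay below and 0 above, against 19.5% and 20.9% of all genes. On irradiated arrays 2 and 3, 5 members each lay above every control and 0 below, against 20.9% and 25.5% of all genes above and 21.8% and 18.5% below. On irradiated array 1, 2 members lay above and 2 below, against 28.0% and 18.2% of all genes. All these counts use brightest probes, and on its second probe Nkg7 lay within the control range on irradiated arrays 4 and 5. Members of 1 array share its RNA pool, so these counts describe single arrays and are not replicates of a condition. Which dose, region or time these arrays stand for is not given in the labels.

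Marker lists of other blood cells were read on the same arrays. The mean of 14 T cell markers, none of which passed (median difference 0.05), was at −0.48, 0.54, 0.48, −0.08 and −0.23 relative to the controls on irradiated arrays 1 to 5, against −0.23 to 0.20 on the control arrays. The summed intensity of these markers ranged from 31717 to 43741 in the controls and from 23805 to 50454 in the irradiated arrays, and all 14 were well above background on every array. Arrays 2 and 3 were thus high for T cell markers as well as for the members, while array 1 was lowest for T cell markers and near the controls for the members. The mean of 9 neutrophil markers was at 0.27, −0.65, −0.18, −1.398 and −1.14, that of 8 platelet markers at −0.49, −0.58, −0.25, −1.11 and −0.76, and both were lowest on arrays 4 and 5. On the control arrays the neutrophil mean ran from −0.61 to 0.78 and the platelet mean from −0.15 to 0.27. The T cell means of arrays 4 and 5 lay within the range of the controls. None of the neutrophil markers (median difference −0.45) and none of the platelet markers (median −0.66) passed the test, and 8 of 9 and 8 of 8 had lower means in the irradiated arrays. An unadjusted limma p under 0.05 was found for 6 of the 8 platelet and 2 of the 9 neutrophil markers, against 12.3% of all genes. Every irradiated array lay below every control for 3 platelet and 0 neutrophil markers, against 1.76% of all genes. The 8 B cell markers had a median difference of −0.27 with 0 passing, and their mean ran from −0.39 to −0.21 on the irradiated arrays and from −0.40 to 0.39 on the controls. The part of these cells in the members' values was not tested.

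The brightest marker of each list was compared between the groups, 1 probe at a time. Cd4 of T cells averaged 13.23 in the controls and 12.95 in the irradiated arrays, Cd79b of B cells 14.55 and 14.17, Pf4 of platelets 13.91 and 13.65, and Csf3r of neutrophils 17.33 and 17.13. Cd4 had the lowest difference of the 14 T cell markers, of which 9 had higher and 5 lower means in the irradiated arrays. Chil3 of lung macrophages was at 17.10 and 17.78, Hdc of mast cells and basophils at 14.56 and 14.64, Vwf of endothelium at 16.03 and 15.80 and Sftpc of type II alveolar cells at 19.40 in both groups. The brightest muscle markers were Actc1 of heart muscle, at 15.95 and 15.16, and Tnni2 of skeletal muscle, at 12.15 and 11.03. None of these passed the test. Of all the marker genes, Areg, the growth factor amphiregulin that type 2 innate lymphoid cells and many other cells make, was the only one that passed. It measured 9.07, 9.18, 8.41 and 8.92 in the controls and 10.83, 11.44, 12.04, 11.64 and 11.69 in the irradiated arrays. It rose by 2.63 on the log2 scale (SE 0.24, adjusted p = 0.00668). Rora, the brightest gene of that list, was at 11.07 in the controls and 11.09 in the irradiated arrays and had the smallest difference of the 7. All 7 genes of the list had higher means in the irradiated arrays, with a median of 0.53, while 10225 of all 19698 genes did. An unadjusted limma p under 0.05 was found for 3 of the 7, against 12.3% of all genes. Relative to the control mean, the mean of the list ran from 0.41 to 1.16 on the irradiated arrays. On the control arrays it ran from −0.35 to 0.28. Areg, with its difference of 2.63, is part of this mean, and the list without Areg was not tested. Signal stood well clear of background in each of the 9 arrays for only 5 of these 7 genes. The 9 mast cell and basophil markers had a median of −0.22 with 6 lower and 0 passing. The 7 endothelial markers had a median of −0.24 with 5 lower.

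Arrays could also be compared within pairs. The positions of the spots on the scanned images and the local background put control array 1 with irradiated array 2, control 2 with irradiated 3, control 3 with irradiated 4 and control 4 with irradiated 5, while irradiated array 1 had no partner and was left out. The correlations of the deviations from the group means within the 4 pairs were 0.20 to 0.46 across probes. The labels name no slide or batch, so these are pairs of like scans and no more. With the pair as a block, 0 of 10 members passed, against 3.84% of all genes, and with the pairs as a random block, which keeps all 9 arrays, 0 of 10 against 9.45%.

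**Figure D3:**
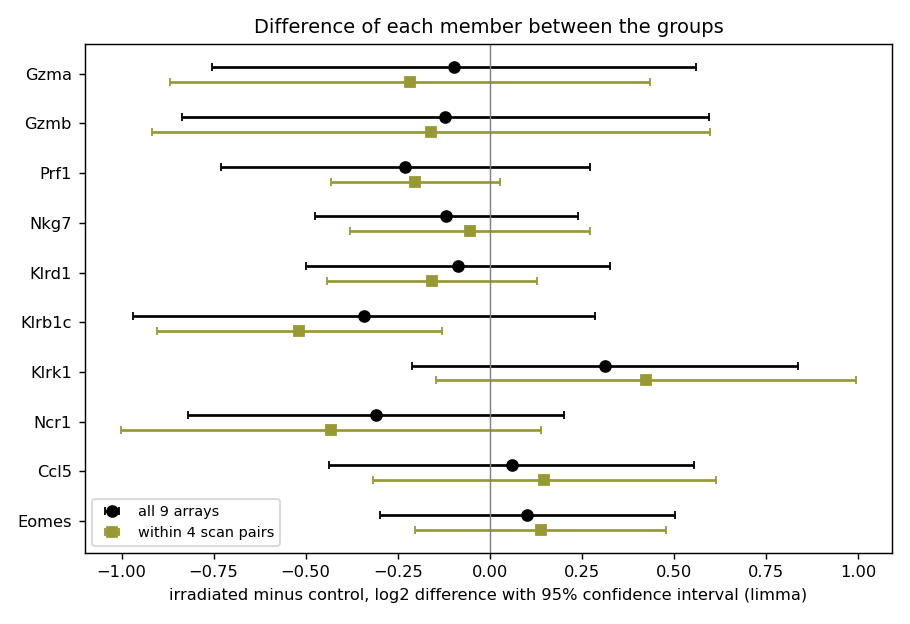
Difference between the irradiated and control arrays (x axis, log2 units) with its 95% confidence interval for each of the 10 genes, from all 9 arrays (black circles) and within the 4 scan pairs, without irradiated array 1 (yellow squares). Every interval from all 9 arrays includes 0. Within pairs the interval of Klrb1c by its brightest probe, −0.90 to −0.13, lies below 0 while its limma adjusted p is 0.147.

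By its brightest probe, Klrb1c was lower in the irradiated array of each pair. The differences were −0.44, −0.13, −0.997 and −0.50 on the log2 scale in the order above. The difference of this probe within pairs was −0.52, with a 95% interval of −0.90 to −0.13, an unadjusted p of 0.018 and a limma adjusted p of 0.147. The second, dimmer Klrb1c probe was higher on irradiated array 3 (6.75) than on control array 2 (6.62) and lower in the other pairs. Ncr1 was also lower in each pair, with differences of −0.30, −0.07, −1.24 and −0.12, and its difference within pairs was −0.43 (adjusted p = 0.352). The pair of control array 3 and irradiated array 4 gave the most negative difference for both. By brightest probes, these were the 2 members lower in all 4 pairs, while 17.3% of all genes were. No member was higher in all 4 pairs, against 17.9% of all genes. Klrk1 was higher by 0.68, 1.04 and 0.09 in the first 3 pairs and gave −0.11 in the last. The granzymes went both ways, with Gzma at −0.36, 0.66, −0.97 and −0.21 and Gzmb at 0.08, 0.77, −1.06 and −0.42.

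Across the 9 arrays, the genes of the group did not all follow their common mean. Gzmb correlated with the mean of the 10 members at r = 0.98, Gzma at 0.93, Klrd1 at 0.89, Nkg7 at 0.81, Klrb1c at 0.79, Ccl5 at 0.78 and Ncr1 at 0.64. Klrk1 (0.38), Prf1 (0.34) and Eomes (0.13) followed it less. Each member is part of that mean, so these values describe the group and are not a test. Of 15227 other genes well above background on all arrays, those most like the mean were Gfm1, a mitochondrial translation factor (r = 0.94), Rpl23a, a ribosomal protein gene with many near-identical copies (0.92), Pdzd11 (0.92), St7 (0.91) and Echdc1 (0.91). With the group means taken out, the nearest were Exosc8, a subunit of the RNA exosome (0.97), Gfm1 (0.95), Atp5md, a small protein of the mitochondrial ATP synthase (0.94), Pdzd11 (0.94) and Slc9a3r2 (0.94). Gfm1 ran from 12.80 on irradiated array 4 to 13.05 on irradiated array 3, a narrow span beside that of Gzmb. None of these 8 genes passed the test between the groups. The correlations describe the same 9 arrays after a shared normalization and carry no test.

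A wider list of 140 genes of NK and cytotoxic function was read in the same fit. Of these, 128 were measured and 0 passed the threshold, beside 0.416% of all genes. An unadjusted p under 0.05 was found for 16, against 12.3% of all genes. The median difference was 0.08 on the log2 scale, 84 genes had higher and 44 lower means in the irradiated arrays, and 4 had every irradiated array above every control array, against 3.40% of all genes.

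**Figure D4:**
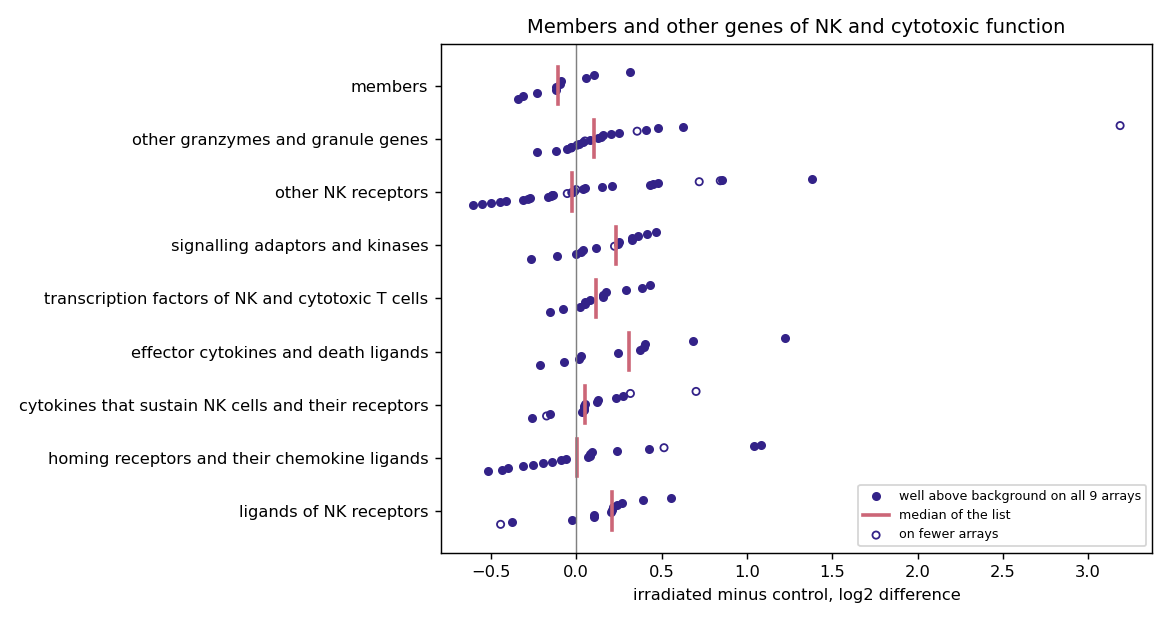
Difference between the irradiated and control arrays (x axis, log2 units) for the 10 members and for 128 other genes in 8 lists of NK and cytotoxic function, 1 point per gene; open points were well above background on fewer than 9 arrays and red bars are the medians of the lists. The medians run from −0.11 for the members to 0.31 for the effector cytokines, and Gzme, near background in the controls, is plotted at 3.19.

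Among 20 other granzyme and granule genes, 15 had higher means, with a median of 0.10. Serpinb6b, of the serpin family that inhibits proteases, had the largest difference among those well above background on all arrays. It measured 13.69, 13.19, 13.62 and 13.72 in the controls and 14.11, 14.03, 14.25, 14.25 and 14.26 in the irradiated arrays. The groups did not overlap, and the difference of 0.63 (SE 0.12) had an adjusted p of 0.0652. The receptor list held 28 measured genes with a median of −0.02, and its largest difference was that of Klra17, a lectin-like receptor, at 1.38 (SE 0.74, adjusted p = 0.601). Its values were high on irradiated arrays 1 and 2 (7.51 and 8.88), while the other irradiated arrays (5.13 to 5.43) lay within the range of the controls (4.77 to 5.76). A second Klra17 probe gave 0.29 (SE 0.28).

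The 14 signalling adaptors and kinases had a median of 0.23, led, among those well above background on all arrays as in the lists that follow, by Lcp2, an adaptor of antigen and NK receptors, at 0.47 (adjusted p = 0.641). The 12 transcription factors had a median of 0.12, led by Runx3, a RUNX factor of cytotoxic cells, at 0.43 (adjusted p = 0.641), with a second probe at 0.03. The 10 effector cytokines and death ligands had a median of 0.31. Ccl3, a chemokine of activated NK cells and macrophages, measured 8.43, 8.18, 8.55 and 8.54 in the controls and 8.93, 9.56, 9.39, 10.50 and 9.85 in the irradiated arrays. Every irradiated array was above every control, and the difference of 1.22 (SE 0.27, adjusted p = 0.113) passed within the scan pairs (1.402, adjusted p = 0.0305). Its order was unlike that of the members, with irradiated array 4 highest. The 9 macrophage markers had a median difference of 0.30. Of these, 0 passed in the fit of all arrays, against 0.416% of all genes, and 1 within the scan pairs, against 3.84%. Of the macrophage markers, 2 had every irradiated array above every control, against 3.40% of all genes. The part of macrophages in the Ccl3 values was not tested.

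The 14 cytokines and receptors that sustain NK cells had a median of 0.05. Among those well above background on all arrays, the largest difference was 0.28 for Il12rb1 (adjusted p = 0.862), a chain of the interleukin 12 receptor, whose second probe gave −0.30. The 18 homing genes had a median of 0.01, with 9 higher and 9 lower means. Of 19 listed ligands of NK receptors, 12 were measured, while Raet1a to Raet1d and H60a to H60c were not found. The 12 had a median of 0.21, led by Ulbp1, a ligand of NKG2D, at 0.56 (SE 0.24, adjusted p = 0.462). Every irradiated array was above every control for Ulbp1, narrowly, with a lowest irradiated value of 5.98 and a highest control of 5.96. Within the scan pairs, 6 of the 128 genes passed, all higher, against 3.84% of all genes. Beside Ccl3 they included Klrb1b (0.52), Lat (0.60), H2-T23 (0.32) and Pvr (0.47), each value being the log2 difference within pairs.

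A pair of further patterns was picked out after their values were seen. Of the 10 measured Klra genes, which encode the Ly49 receptors, 9 had lower means in the irradiated arrays and Klra17 alone was higher. None passed. Of the brightest probes, that of Klra7 was nearest, at 11.11, 11.34, 11.20 and 10.76 in the controls and 10.82, 10.83, 10.72, 10.28 and 10.13 in the irradiated arrays. Its difference was −0.55 (SE 0.18, adjusted p = 0.296), and −0.62 within pairs (adjusted p = 0.0588). A second, dimmer Klra5 probe was nearer still, with every irradiated array below every control, at −0.85 (SE 0.20, adjusted p = 0.129, and 0.0742 within pairs), while the brighter Klra5 probe gave −0.28 with no value on irradiated array 4, an outlier spot. The Klra genes are near-identical copies in places, so their probes may read each other's RNA and the 9 are not independent.

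**Figure D5:**
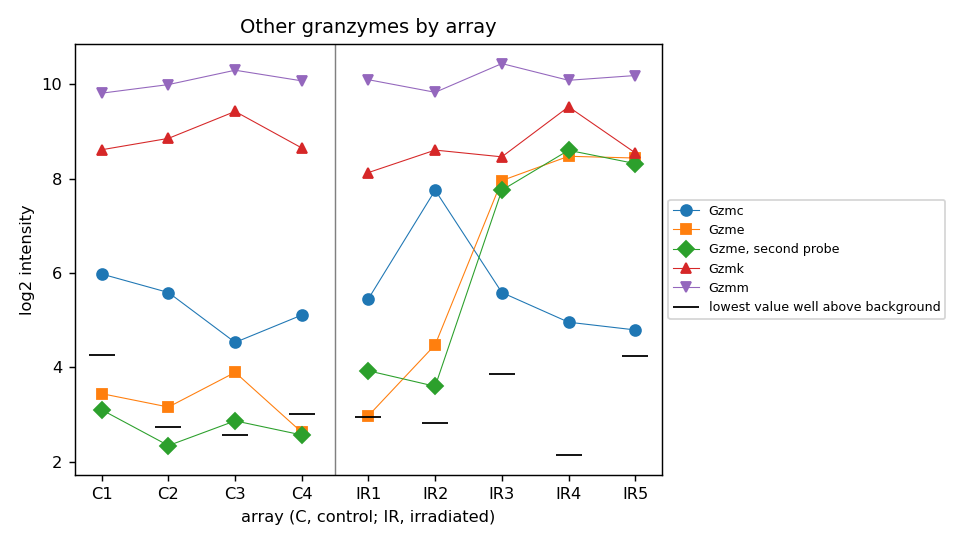
Log2 intensity (y axis) of granzymes C, E (both probes), K and M on the 4 control (C) and 5 irradiated (IR) arrays; black bars are the lowest value marked well above background on each array. Both Gzme probes lie between 7.75 and 8.60 on IR3, IR4 and IR5 and between 2.34 and 4.48 on the other 6 arrays.

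Gzme, for granzyme E, was near background on 6 arrays and bright on 3. Its brightest probe measured 3.44, 3.16, 3.89 and 2.62 in the controls and 2.97, 4.48, 7.96, 8.47 and 8.44 in the irradiated arrays, and it was well above background on 1 control array and on irradiated arrays 3, 4 and 5. A second probe read 3.10, 2.34, 2.86 and 2.56 in the controls and 3.92, 3.60, 7.75, 8.60 and 8.32 in the irradiated arrays. It was well above background on no control and on the same 3 irradiated arrays. Neither probe passed (adjusted p = 0.332 and 0.226). Their log2 differences, 3.19 and 3.72, are set against control values mostly not well above background and are no exact folds, and the irradiated arrays 1 and 2 lay near the controls. The 3 arrays were high for Gzme while of Gzma and Gzmb array 3 had the highest and array 4 the lowest values. Gzmc, by contrast, peaked on irradiated array 2 at 7.75, and Gzmk and Gzmm differed by −0.23 and 0.08 between the groups. The granzyme genes C to G and N are close copies of each other, so which of them a Gzme probe reads was not tested.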

How the data were processed

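The arrays are Agilent mouse 44K whole genome arrays with 1 color. The authors deposited, per array, the scanner intensity of each spot from the Feature Extraction software (version not given in the sources used here), without normalization between arrays. They also deposited a table of quantile-normalized intensity values, which was used as an alternative only: its values followed the median signal less local background (rank correlation 1.00 on each array), and the distribution they were set to stays unknown. The labels name the dye Cy5, while the signal columns are those of the green channel.

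Control spots and outlier spots were left out. A probe was kept where its median signal exceeded 1.4-fold local background on 4 or more of 9 arrays (39302 of 39429). The processed signal was log2 transformed, then quantile normalized. Probes were named through accessions in the RefSeq table of GRCm38.p6, which gave a symbol to 26055 probes. Irradiated was compared with control in limma 3.58.1 (R 4.3.3), with an intensity trend, no covariate and p-values adjusted by Benjamini-Hochberg over every kept probe. The fit was tested on simulated data. For each member, a two-sided exact permutation test over the 126 assignments of arrays was run. The members, lists and tests were chosen with earlier results of these data known. Besides the members, the genes named were, of each wider list, the gene with the largest difference among those well above background on all arrays (none passed), of each marker list the brightest gene and those that passed, and the 5 genes most like the members' mean; others are said to be chosen after their values were seen or are those of a small count. Of the wider list, 12 genes were not found through the gene table. The gene that this rule gives for the homing list is not reported here.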

Additional observations from a re-analysis of the deposited data

Results flagged for a closer look

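In 4 of 62 groups of arrays, 1 array was an outlier by Dixon's test, where about 3.1 are expected by chance. All 4 are means of gene lists, on the log2 scale relative to the control mean, and none is the value of a single member. The mean of the other granzyme and granule genes was −0.026 on irradiated array 1, against 0.298 to 0.419 on the other irradiated arrays. The mean of the ligands of NK receptors was −0.131 on irradiated array 1, against 0.136 to 0.233. Cardiac muscle markers had a mean of −4.92 on irradiated array 1, against −0.528 to 0.225. Skeletal muscle markers had a mean of 4.29 on control array 3, against −1.83 to −1.20 on the other control arrays. The members themselves were at −0.004 on irradiated array 1 and at −0.02 on control array 3.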

How the results depend on the processing

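The count of members past the threshold was 0 under all 21 alternatives. Of the 210 member differences they gave, 197 kept their direction without passing the threshold and 13 changed sign. Gzma became positive with the replicate block (0.0049), without control array 1 (0.020), without irradiated array 4 (0.12) and without irradiated array 5 (0.0049). Gzmb became positive without irradiated array 4 (0.13), and Klrd1 with the replicate block (0.00047), without irradiated array 4 (0.028) and without irradiated array 5 (0.00047). Ccl5 became negative without control array 3 (−0.0066), irradiated array 2 (−0.051) or irradiated array 3 (−0.094), and Eomes with scaling to the 75th percentile (−0.028) and without control array 3 (−0.0046). Leaving out 1 array in turn, the differences ran from −0.27 to 0.12 for Gzma, from −0.31 to 0.13 for Gzmb, from −0.16 to 0.028 for Klrd1, from −0.094 to 0.17 for Ccl5 and from −0.0046 to 0.28 for Eomes. Those of the other 5 kept their sign, from −0.52 (without irradiated array 1) to −0.15 (without irradiated array 4) for Klrb1c, from −0.43 to −0.15 without the same arrays for Ncr1, from −0.37 (without control 4) to −0.096 (without control 3) for Prf1, from −0.22 (without irradiated 2) to −0.054 (without irradiated 1) for Nkg7 and from 0.20 (without irradiated 3) to 0.42 (without irradiated 1) for Klrk1. Over all 21 alternatives, Klrk1 ran from 0.10 (75th percentile scaling) to 0.42 (scan pairs as a fixed block). The cause of these shifts was not tested.

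Of the 128 genes of the wider list, 0 passed in the main fit, 1 with scaling to the 75th percentile, 6 with the scan pairs as a fixed block and 10 with them as a random block (8 higher, 2 lower). Leaving out 1 array gave 0 to 2, the latter without irradiated array 1.

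Over all probes, 131 passed (75 higher, 56 lower), 199 with the background filter on all 9 arrays, 44 with the authors' normalized table, 44 without an intensity trend, 1105 with the scan pairs as a fixed block and 2898 as a random block. The split was 52 higher and 72 lower with 75th percentile scaling, 56 and 58 with normexp correction of the median signal, and 11 and 33 in the authors' table, where signal, background and normalization differ together. The 75th percentile scaling put the median difference of all probes at −0.074, against −0.004 in the main fit. Without 1 array, between 5 (control 3) and 476 (irradiated 1) passed. The count was 46, 14 and 8 without control arrays 1, 2 and 4, and 14, 6, 18 and 23 without irradiated arrays 2, 3, 4 and 5. Arrays with the same number did not deviate together (correlations −0.17 to 0.06), so they share only a number, and with the replicate block, which leaves out irradiated array 5, 1 probe passed. Leaving out irradiated array 1 and control array 3 together was chosen after seeing the data and gave 155 probes. The arrays give intensity relative to each probe, and differences smaller than the intervals given for each member could not be told from none with 9 arrays.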
